A study of Homo sapiens with 2 samples.

Results

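The genes described here encode the forkhead (FOX) transcription factors. They were taken by gene symbol: FOX, a letter from A to S and a number, with an optional suffix for related copies such as FOXD4L1 or FOXO3B. By this rule 50 of the 26255 listed genes were forkhead genes. Genes named for a neighbouring forkhead gene, such as FOXD2-AS1 or FOXCUT, are not members. No measured value enters this rule.

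RNA was sequenced from OVSAHO, an established human line from a serous ovarian carcinoma, in 2 libraries with 1 library per group. The perturbed cells (A2-siA4) have raised SMARCA2 and lowered SMARCA4, 2 alternative ATPases of the SWI/SNF chromatin remodeller, and their genotype label reads SMARCA2 stable, SMARCA4 knockdown. The control cells (Ctrl-siNC) are labelled WT; the labels do not spell out these short names. Both cultures were grown with carboplatin, a DNA-crosslinking platinum drug, at 25 µM for 2 days, so no untreated culture is compared here. The labels do not say whether either culture is a single clone. SMARCA2 had 2.60 FPKM in the perturbed and 0.205 in the control library, and SMARCA4 had 4.49 and 27.9. FPKM counts fragments per kilobase of transcript, scaled to the mapped fragments of the library. The depths, estimated from the steps between low values, were about 8860000 and 9040000 fragments. Of the 13 serous ovarian epithelial markers, 12 were at 1 FPKM or more in a library, and MUC16 was not; their median log2 ratio was 0.66. PAX8 had 42.1 and 21.9 FPKM, while the keratin KRT7 was lower, at 119 and 540 FPKM, and FOLR1 had 62.6 and 111. The part of these markers in the results was not tested. Of 9 leukocyte markers 7 were listed at 0 in both libraries, and CD68 had 11.1 FPKM in the perturbed and 34.9 in the control library; its part in the results was not tested. No granulosa, fibroblast or endothelial marker reached 1 FPKM, of 8, 7 and 5 listed. With 1 library per group the spread between cultures is unknown, and no p-value was computed. In RNA from whole cultures, fewer cells of a kind and less RNA per cell cannot be told apart.

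Forkhead factors share a winged-helix DNA-binding domain and are grouped by letter into subfamilies. FOXA factors open closed chromatin, FOXO factors are kept out of the nucleus when AKT phosphorylates them, and FOXM1 drives genes of G2 phase and mitosis. In the ovary and fallopian tube, FOXL2 marks granulosa cells and FOXJ1 marks ciliated cells.

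Of the 50 genes, 12 reached 1 FPKM in one of the libraries, 17 were above 0 but under 1 FPKM in both, and 21 were listed at 0 in both libraries. The share of all genes listed at 0 in both was 35.9%. In the perturbed library 12 forkhead genes were at 1 FPKM or more, and in the control library 9. FOXM1 was the most abundant in each library, and it alone made up 35.4% of the summed forkhead FPKM in the perturbed library and 34.1% in the control. That sum was 79.8 FPKM in the perturbed library and 41.1 in the control. Most expressed forkhead genes were weakly expressed: the median of the 12 was 3.11 FPKM in the perturbed library and 1.64 in the control, against 8.25 and 8.53 for all genes at 1 FPKM or more in a library.

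**Figure D1:**
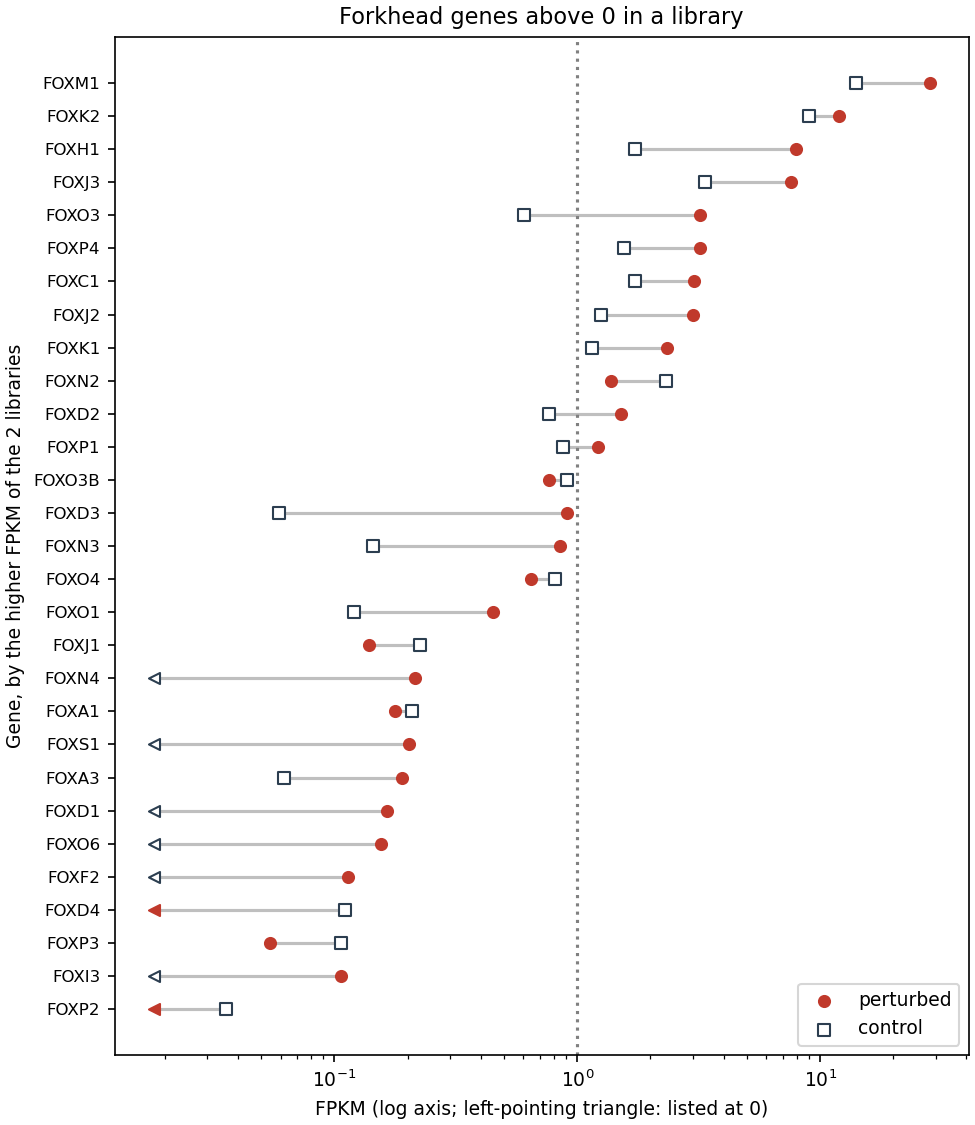
FPKM (log axis) of the 29 forkhead genes above 0 in a library, with a filled circle for the perturbed library and an open square for the control, and a left-pointing triangle where a library lists 0; the dotted line is 1 FPKM. FOXM1, at 28.3 and 14.0 FPKM, stands highest in both, and among the 12 genes at 1 FPKM or more only FOXN2 has its control value to the right.

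A gene was called higher where its log2 ratio of (FPKM + 1), the perturbed library over the control, reached 1, and lower where it reached -1, among genes with 1 FPKM or more in either library. By this rule 2 of the 12 forkhead genes were higher, FOXH1 and FOXO3, against 7.85% of all 11785 genes at that level. None was lower, against 7.61% of all genes. With the libraries scaled to a common sum, 4 forkhead genes were higher and none lower, beside 1257 higher and 685 lower of 12020 genes. The log2 ratio was above 0 for 11 of the 12, that is 91.7%, against 46.5% of all genes, and FOXN2 was the exception. The median log2 ratio of the 12 was 0.68, against -0.06 for all genes. FOXD2, FOXO3 and FOXP1 were under 1 FPKM in the control and entered the 12 by their perturbed value alone. That set the sign of their ratios in advance. Of the 9 members at 1 FPKM or more in both libraries 1 was higher, against 5.45% of all such genes. Their median was 0.71, against -0.10. The ratio also moved with level, and 8 of the 12 had their higher FPKM between 1 and 5. Of all genes in that class 60.1% had a ratio above 0 and 9.26% were higher, with a median of 0.17. The added 1 FPKM understates the ratio of genes as weak as these. By FPKM alone, 7 of the 12 were at least 2-fold higher and none was 2-fold lower, against 14.1% and 10.9% of the 11645 genes of that level that both libraries list above 0, of which 46.4% had a ratio above 1.

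**Figure D2:**
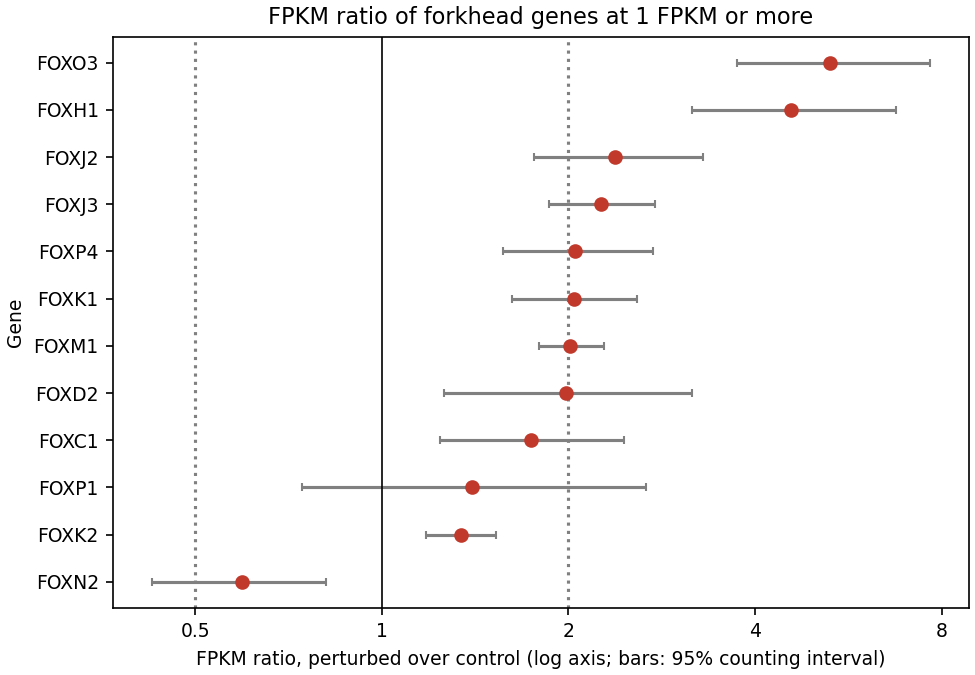
Ratio of FPKM, perturbed over control (log axis), for the 12 forkhead genes at 1 FPKM or more, with 95% counting intervals as bars; dotted lines mark 2-fold. FOXO3 (5.29) and FOXH1 (4.58) lie farthest to the right, 10 of the intervals lie above 1, the interval of FOXP1 crosses 1 and that of FOXN2 lies below it.

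The ratio moved with transcript length across all genes. Those with 5000 bases or more had a median log2 ratio of 0.38, and 69.0% of them were above 0. Genes of 1500 to 3000 bases had a median of -0.19, with 39.4% above 0. The expressed forkhead genes were long, with a median of 5245 bases against 2348 for all genes at that level, and 7 of the 12 were at least 5000 bases against 12.9% of all genes. With a fitted trend on length, base composition and level removed, the forkhead median was 0.29 against -0.07 for all genes. FOXH1 and FOXM1 were then the 2 past 2-fold, against 5.88% of all genes, with log2 ratios of 1.57 and 1.03, FOXO3 was at 0.89, and FOXD2 (-0.04) and FOXK1 (-0.08) were just below 0, against 46.0% of all genes above 0. The part of transcript length in the ratio of any single gene was not tested beyond this.

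**Figure D3:**
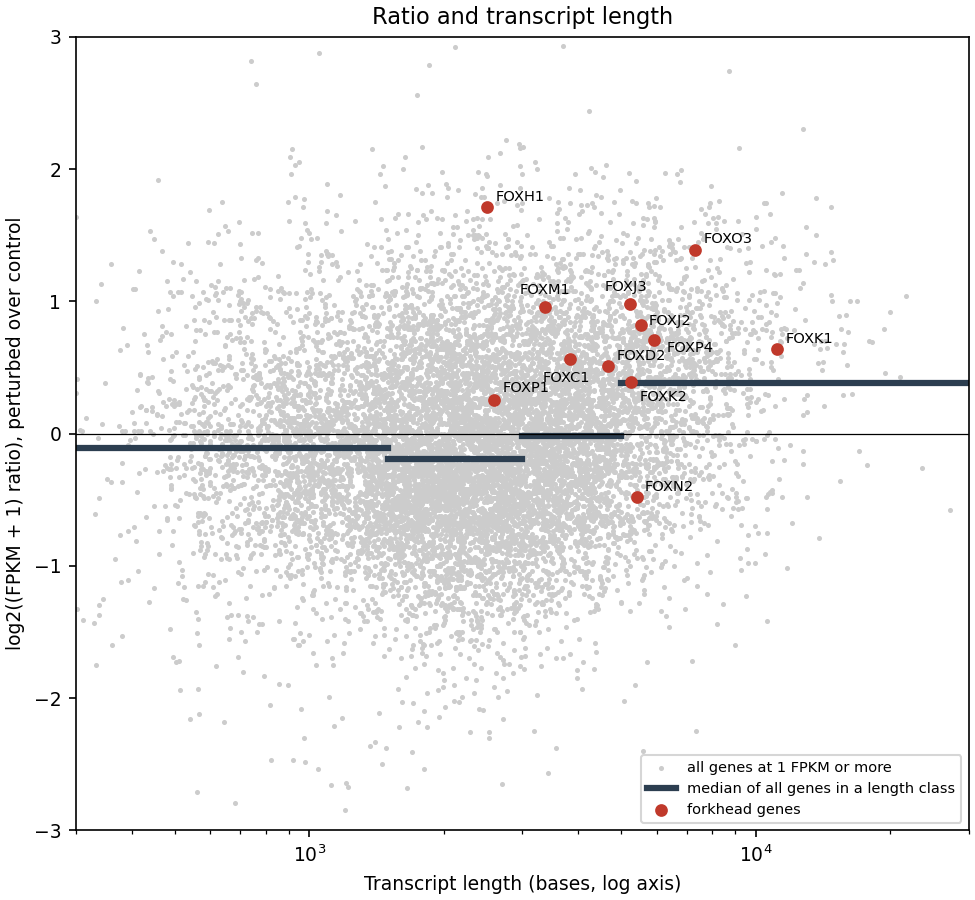
log2 ratio of (FPKM + 1), perturbed over control, against transcript length (bases, log axis) for 11247 genes at 1 FPKM or more, with the median of each length class as a bar; 99 genes lie outside the axes. FOXH1 (2503 bases) and FOXM1 (3370 bases) sit far above the bars at their length, while FOXK2 (5265 bases) sits on the bar of the longest class.

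The sequence upstream of the start sites was looked at because most expressed members had higher values together. RefSeq promoter sequence on GRCh38.p14 was found for 9 of the 12 expressed members, with 19 start sites in all. No such sequence was found for FOXH1, FOXM1 or FOXN2, so no motif count or printed window covers them. The 250 bases before each start were searched on both strands. The motifs were the CCAAT box (CCAAT), the GC box (GGGCGG), the forkhead core motif (GTAAACA), the TEAD motif (GGAATG), the AP-1 motif (TGACTCA), the CRE (TGACGTCA), the E-box (CACGTG) and an E2F motif (GGCGGGAA). Matches of the GC box may overlap each other. The GC box was found in 12 of the 19 windows, against 42.6% of 35116 RefSeq windows of this length. These 12 windows came from all 9 genes, some of which have several windows, and no share per gene was computed over all genes. The G and C share of the 19 windows ran from 38.8% in FOXP1 to 85.6% in FOXK1. Most of the 19 lay above 58.0%, the median of all 35116 windows. The part of this base composition in the GC box count was not tested. The forkhead core motif was found in 1 window, of FOXP1, against 2.98% of all windows. The CCAAT box was found in 3 windows, the TEAD motif and E-box in 2 each and the AP-1 motif in 1, against 32.0%, 11.9%, 6.34% and 4.20% of all. Neither the CRE nor the E2F motif was found in the 19 windows. A match is letters in a window and was not tested for binding.

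The windows of the matched members at least 2-fold higher by FPKM are printed 5′ to 3′ on the strand of the gene, from the outermost start site, with matches to the motifs in capitals.
FOXO3, chr6:108559575-108559824, + strand: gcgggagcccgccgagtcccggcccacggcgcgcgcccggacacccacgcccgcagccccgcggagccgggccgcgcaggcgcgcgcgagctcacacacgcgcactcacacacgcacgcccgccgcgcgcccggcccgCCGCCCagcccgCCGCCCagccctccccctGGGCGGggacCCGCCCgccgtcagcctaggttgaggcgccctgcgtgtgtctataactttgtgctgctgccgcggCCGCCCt
FOXJ2, chr12:8032466-8032715, + strand: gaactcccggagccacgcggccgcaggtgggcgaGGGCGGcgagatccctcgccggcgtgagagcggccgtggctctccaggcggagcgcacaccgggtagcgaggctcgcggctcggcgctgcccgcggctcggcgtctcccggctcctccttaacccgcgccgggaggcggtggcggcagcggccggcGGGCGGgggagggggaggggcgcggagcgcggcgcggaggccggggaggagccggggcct
FOXJ3, chr1:42335881-42336130, - strand: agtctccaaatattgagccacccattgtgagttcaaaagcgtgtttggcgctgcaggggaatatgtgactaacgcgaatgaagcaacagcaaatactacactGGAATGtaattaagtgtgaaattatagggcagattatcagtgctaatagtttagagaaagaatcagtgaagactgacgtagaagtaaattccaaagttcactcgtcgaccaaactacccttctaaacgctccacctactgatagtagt
FOXK1, chr7:4682045-4682294, + strand: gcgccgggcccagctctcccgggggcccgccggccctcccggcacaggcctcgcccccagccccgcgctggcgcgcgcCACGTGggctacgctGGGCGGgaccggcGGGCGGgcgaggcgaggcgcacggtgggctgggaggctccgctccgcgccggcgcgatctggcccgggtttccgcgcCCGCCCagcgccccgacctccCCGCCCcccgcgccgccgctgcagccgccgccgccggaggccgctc
FOXP4, chr6:41546131-41546380, + strand: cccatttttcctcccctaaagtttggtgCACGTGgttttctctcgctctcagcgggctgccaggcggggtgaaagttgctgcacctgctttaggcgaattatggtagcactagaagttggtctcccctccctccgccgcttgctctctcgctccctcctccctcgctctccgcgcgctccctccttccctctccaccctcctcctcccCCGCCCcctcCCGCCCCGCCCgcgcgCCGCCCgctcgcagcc
In these printed windows FOXO3 holds 5 GC boxes and no other motif, FOXJ2 holds 2, FOXK1 holds 4 with 1 E-box, and FOXP4 holds 4 with 1 E-box. The printed FOXJ3 window has 40.8% G and C and a single TEAD motif. FOXJ3 windows not printed have 78.8% and 72.8% G and C, with 3 and 2 GC boxes. A FOXO3 window not printed has 47.6% G and C and 1 AP-1 motif alone.

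FOXM1 carries out the cell-cycle role of the family. It had 28.3 FPKM in the perturbed and 14.0 in the control library, from about 794 and 402 fragments. The perturbed value was 2.01-fold higher, with a 95% counting interval (exact binomial, covering counting error alone) of 1.79 to 2.28. Genes at 20 to 100 FPKM had a median log2 ratio of -0.28, and 4.46% of them were called higher. FOXM1 missed the rule itself, with a log2 ratio of 0.96, and passed it (1.01 to 1.10) with a pseudocount of 0.1 FPKM, under each other scaling and with trends removed. Its neighbour ITFG2 is transcribed from the opposite strand: 20.7% of the 50-base words of the FOXM1 transcript occur in reverse in transcripts of ITFG2, and these libraries do not keep strand. ITFG2 had 5.84 FPKM in the perturbed and 8.69 in the control library, 1.49-fold lower, the opposite direction to FOXM1.

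The known target genes of FOXM1 mostly had the opposite sign to FOXM1 itself. All 32 listed target genes, mostly of G2 phase and mitosis, were at 1 FPKM or more. None was higher and 6 were lower, against 7.85% and 7.61% of all genes. The ratio was above 0 for 8 and below 0 for 24 of the 32, against 46.5% of all genes above 0. Their median log2 ratio was -0.62, against -0.06 for all genes. Most of the 32 had 20 FPKM or more in a library, a level at which ratios ran lower. Genes at 20 to 100 FPKM had a median of -0.28, with 33.6% above 0. Those at 100 FPKM or more had a median of -0.23, with 31.7% above 0. The mitotic kinase NEK2 had 21.9 FPKM in the perturbed and 62.2 in the control library, 2.84-fold lower (2.50 to 3.23). The spindle midzone protein PRC1 was at 15.4 and 42.6 FPKM, 2.77-fold lower (2.46 to 3.11). The ubiquitin ligase subunit SKP2 (2.29-fold) and the kinase AURKA (2.26-fold) were lower as well. Other members had the same direction as FOXM1 without passing the rule, among them CENPB (6.37 and 2.76 FPKM), CENPF (16.8 and 9.32) and CDC25B (50.2 and 35.2). With trends removed 2 were lower and none higher, against 7.38% and 5.88% of all genes. The median was then -0.38, against -0.07 for all genes. With the libraries scaled to a common sum 4 were lower and 1 higher, with a median of -0.48.

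Among 19 genes that act on FOXM1 or bind DNA with it, 1 was higher and 1 lower, against 7.85% and 7.61% of all genes. The list's median of -0.03 turned to 0.07 with a common sum and to 0.05 when centred. The kinase CDK6, which phosphorylates FOXM1 with D cyclins, had 7.48 FPKM in the perturbed and 1.09 in the control library, 6.84-fold higher (3.66 to 12.9, for the shortest of its matched transcripts). The cyclin CCNA2 was at 22.3 and 50.9 FPKM, 2.28-fold lower (2.05 to 2.53), and its log2 ratio was -0.95 with trends removed. MYBL2, the B-MYB factor of the same mitotic gene programme, was at 299 and 338 FPKM, and the CDK inhibitor CDKN2A at 359 and 252.

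The FOXO subfamily restrains growth and answers to insulin signalling. FOXO3 had 3.20 FPKM in the perturbed and 0.605 in the control library, about 202 and 38.9 fragments, 5.29-fold higher (3.74 to 7.66). FOXO1 was weaker, at 0.448 and 0.120 FPKM or about 22.0 and 5.99 fragments, 3.75-fold higher with an interval of 1.47 to 11.3. FOXO4 was at 0.643 and 0.807 FPKM, and the interval of its 1.25-fold lower value, 0.354 to 3.62, held 1. FOXO6, a mostly neural member, had 0.155 FPKM in the perturbed library and was listed at 0 in the control, on fewer than the 3 fragments used as a floor. Thus the intervals of FOXO3 and FOXO1 lay above 1 and that of FOXO4 did not.

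FOXO3 has a related copy, FOXO3B, with which it shares sequence. In the FOXO3 transcript 29.3% of the 50-base words occur in other genes, FOXO3B above all, and 64.2% of the words of FOXO3B occur elsewhere, mostly in FOXO3. FOXO3B had 0.767 FPKM in the perturbed and 0.907 in the control library, 1.18-fold lower. The sources used here do not say how reads were divided between these copies, so both values are uncertain.

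Target genes of the FOXO factors included more lower than higher calls. Of 36 listed, 28 were at 1 FPKM or more; 6 were lower and 2 higher, against 7.61% and 7.85% of all genes. The ratio was above 0 for 9 of the 28, against 46.5% of all genes, with a median of -0.42. The list was not divided into genes that FOXO factors raise and genes that they lower. The lower ones were led by PDK4, a mitochondrial kinase that limits glucose oxidation, at 1.74 FPKM in the perturbed library and 13.2 in the control, 7.59-fold lower (5.67 to 10.3). TXNIP, which binds thioredoxin, was 3.81-fold lower (2.17 to 6.61), DEPP1, listed under its older name C10orf10, 3.48-fold lower (2.72 to 4.46) and TRIB1 2.27-fold lower. The higher ones belong to insulin signalling: the insulin receptor INSR, at 1.78 and 0.388 FPKM (4.58-fold, 2.61 to 8.36), and its adaptor IRS2, at 12.9 and 3.74 FPKM (3.45-fold, 3.01 to 3.98). Both have long transcripts, and with trends removed the log2 ratio of INSR was 0.63. The split depended on scaling: with a common sum 3 were lower and 5 higher, and with trends removed 4 were lower and 1 higher. The median stayed below 0 under each scaling, between -0.29 and -0.42.

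The genes that control FOXO proteins went both ways. Of 31 listed, 28 were at 1 FPKM or more. Of these 1 was higher and 4 were lower, against 7.85% and 7.61% of all genes. Their median was 0.39 (0.27 with trends removed), and 3 were higher with a common sum. With trends removed none was higher and 2 were lower, against 5.88% and 7.38% of all genes. USP7 (0.93), SKP2 (-0.99) and SIRT2 (-0.92) no longer passed. The kinase SGK1, which phosphorylates FOXO proteins as AKT does, had 5.49 FPKM in the perturbed and 26.5 in the control library, 4.83-fold lower (3.91 to 5.99). AKT1 was at 48.0 and 28.6 FPKM and AKT2 at 2.48 and 1.42. The 14-3-3 protein SFN (3.46-fold) and the deacetylase SIRT2 (2.23-fold) were lower, as was SKP2, which is also in the FOXM1 list. The deubiquitinase USP7 was at 5.60 and 2.22 FPKM, 2.52-fold higher (1.89 to 3.40).

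FOXH1, the DNA-binding partner of SMAD2 and SMAD4 in Nodal and activin signalling, had the largest log2 ratio of the family, while FOXO3 had the larger fold by FPKM. It had 7.92 FPKM in the perturbed and 1.73 in the control library, about 161 and 36.0 fragments, 4.58-fold higher (3.17 to 6.75). Its transcript overlaps KIFC2 on the other strand, and 30.2% of its 50-base words occur in reverse in KIFC2 transcripts. KIFC2, a kinesin motor, was at 5.38 and 2.38 FPKM, 2.26-fold higher, so the neighbour was higher as well, by less, and fragments of the shared stretch cannot be told apart. Of the 13 partners and Nodal pathway genes, 7 were at 1 FPKM or more. None was lower, against 7.61% of all genes, and 1 was higher, against 7.85%. This was the homeobox gene GSC, a classical activin response gene, at 3.43 and 0.447 FPKM, 7.66-fold higher (2.90 to 31.8) on about 32.3 and 4.30 fragments. SMAD2 was at 3.64 and 6.43 FPKM, SMAD4 at 2.48 and 2.68, and the Nodal coreceptor gene TDGF1 was listed at 0 in both. The list's median was -0.08, and 0.02 with a common sum. With trends removed it was -0.56, and SMAD2, at -1.14, was then lower.

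FOXJ2 and FOXJ3 are widely expressed factors, unlike the ciliary FOXJ1. FOXJ3 had 7.61 FPKM in the perturbed and 3.37 in the control library, 2.26-fold higher (1.86 to 2.76), from about 339 and 153 fragments. FOXJ2 was at 2.99 and 1.25 FPKM, 2.38-fold higher (1.76 to 3.30), from about 141 and 60.4, and its log2 ratio of 0.82 was 0.47 with trends removed. FOXJ1, needed for motile cilia, was at 0.139 and 0.226 FPKM, which is about 3 and 4.99 fragments. Thus the FOXJ1 level lay at or near the floor of 3 fragments in both libraries. Of 26 multiciliated cell genes 10 were at 1 FPKM or more, and 7 were listed at 0 in both libraries, among them the axonemal dynein genes DNAI1, DNAI2 and DNAH9. The p53 relative TP73 was higher, at 1.68 and 0.0729 FPKM (23.1-fold, 7.71 to 117), on about 3.04 fragments in the control; with trends removed its log2 ratio was 0.87, short of the rule. CCNO (2.18-fold) and CAPS (2.58-fold) were lower, for a list median of -0.11. So 1 of the 10 was higher and 2 were lower, against 7.85% and 7.61% of all genes. Neither CCNO nor CAPS was past the rule with a common sum or when centred. With trends removed none of the list was higher and 3 were lower, against 5.88% and 7.38% of all genes, with a median of -0.29.

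FOXK1 and FOXK2 repress transcription together with SIN3 and the deubiquitinase BAP1. FOXK2, the second most abundant forkhead gene, had 12.0 FPKM in the perturbed and 8.95 in the control library, 1.34-fold higher (1.18 to 1.53). FOXK1 was at 2.34 and 1.15 FPKM, 2.04-fold higher (1.62 to 2.58), about 228 and 114 fragments over a transcript of 11181 bases. For FOXK2, 21.9% of the words lie opposite the transcript AC124283.1. Of 14 partner genes 13 were at 1 FPKM or more. Of these 2 were higher and none lower, against 7.85% and 7.61% of all genes. Their median was 0.62 (0.25 with trends removed), against -0.06 (-0.07) for all genes. The sugar transferase OGT was at 17.6 and 6.80 FPKM, 2.60-fold higher (2.19 to 3.09), and the SIN3 subunit SAP30 at 6.59 and 2.68 FPKM, 2.46-fold higher (1.47 to 4.25). SIN3A was at 3.91 and 2.03 FPKM and BAP1 at 18.1 and 15.5.

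FOXP factors are repressors that dimerise through a leucine zipper. FOXP4 had 3.19 FPKM in the perturbed and 1.56 in the control library, 2.05-fold higher (1.57 to 2.74), and its log2 ratio of 0.71 was 0.23 with trends removed. FOXP1 was at 1.22 and 0.871 FPKM, a 1.40-fold difference whose interval, 0.744 to 2.67, held 1. The FOXP1 interval rests on a transcript of 2595 bases, while its matched transcripts run from 843 to 8994 bases, and 79.3% of its words also occur in AC097634.4. FOXP3, the regulatory T cell factor, was at 0.0543 and 0.106 FPKM, which is about 0.997 and 1.99 fragments. FOXP2 was listed at 0 in the perturbed library, with less than 1 estimated fragment (0.788) in the control. Among 12 partners of FOXP factors 10 were at 1 FPKM or more, with a median of 0.55. None was lower, against 7.61% of all genes, and 3 were higher, against 7.85%. These were the corepressor CTBP2 (18.4 and 4.61 FPKM, 3.99-fold, 3.08 to 5.17), the deacetylase HDAC7 (2.59-fold, 2.13 to 3.19) and the NuRD subunit GATAD2A (2.48-fold). With trends removed 2 were higher, against 5.88% of all genes, and HDAC7 was at 0.98.

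FOXN2 was the only forkhead gene at 1 FPKM or more with a lower value in the perturbed library. It was at 1.37 FPKM there and 2.31 in the control, about 63.3 and 109 fragments, 1.68-fold lower (1.23 to 2.35). Its paralog FOXN3, a checkpoint suppressor, was at 0.850 and 0.144 FPKM, 5.89-fold higher with an interval of 1.90 to 34.1 on about 18.8 and 3.25 fragments. The FOXN3 fragments and interval rest on a transcript of 2692 bases, while its longest matched transcript has 7832. By FPKM the paralogs thus lay on opposite sides of 1, with FOXN3 under 1 FPKM in both libraries. FOXN3-AS1, an antisense RNA at the FOXN3 locus, was at 0.773 and 1.26 FPKM. FOXN4, a retinal and spinal cord factor, was at 0.215 FPKM or about 6 fragments in the perturbed library and listed at 0 in the control.

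Members with roles in mesoderm and neural crest were present at low levels. FOXC1, which acts in mesenchyme, had 3.02 FPKM in the perturbed and 1.73 in the control library, 1.74-fold higher (1.24 to 2.46). The adjacent non-coding RNA FOXCUT was at 1.20 and 0.157 FPKM. FOXD2 was at 1.51 and 0.765 FPKM, 1.98-fold higher (1.26 to 3.16), and its neighbour FOXD2-AS1 at 3.57 and 1.34 FPKM, 2.66-fold higher (1.70 to 4.28). FOXD3, a neural crest and pluripotency factor, was at 0.907 and 0.0592 FPKM, 15.3-fold higher on about 15.2 and 1.01 fragments, with an interval of 2.36 to 645. Its neighbour FOXD3-AS1 had 3.36 and 3.42 FPKM on about 8.82 and 9.16 fragments, 1.02-fold lower with an interval of 0.344 to 2.78, too few to tell its direction. FOXF1, FOXC2, FOXQ1 and FOXL1 were listed at 0 in both libraries. Of 22 mesoderm and EMT-linked genes, 10 were at 1 FPKM or more. Of these 1 was higher, the matrix protein SPARC (12.3-fold), and 1 lower, the EMT factor SNAI1 (2.53-fold), against 7.85% and 7.61% of all genes. The list's median log2 ratio was 0.42, or 0.31 with trends removed. TWIST1 was at 2.70 and 0.905 FPKM.

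FOXA genes, which mark luminal and endodermal epithelia, were nearly silent. FOXA1 had 0.177 FPKM in the perturbed and 0.208 in the control library, about 4.19 and 5.01 fragments. FOXA3 was at 0.189 and 0.0618 FPKM, about 3 and 0.999 fragments, and FOXA2 was listed at 0 in both. Of 16 FOXA partner and luminal genes 5 were at 1 FPKM or more. None was higher, against 7.85% of all genes, and 1 was lower, against 7.61%. This was GATA3, at 0.865 and 6.39 FPKM, 7.38-fold lower (4.52 to 12.5). The list median was -0.22. The oestrogen receptor gene ESR1 was at 0.497 and 0.486 FPKM.

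The remaining low members rested on a handful of fragments. Of the 17 members above 0 and under 1 FPKM, 6 were above 0 in the perturbed library alone, 2 in the control alone and 9 in both. The one-sided ones were FOXD1, FOXF2, FOXI3, FOXN4, FOXO6 and FOXS1 for the perturbed library and FOXD4 and FOXP2 for the control. Among all 5053 such genes, 24.6% were above 0 in the perturbed library alone, 16.9% in the control alone and 58.6% in both. FOXD1, FOXF2 and FOXS1 stood at about 3.01, 2.01 and 2.00 fragments. At this depth 3 fragments would read as at most 0.353 FPKM for the 21 members listed at 0, depending on transcript length, so lower levels may not have been detectable. They include FOXL2, FOXE1, FOXN1, FOXI1 and the FOXD4-like copies FOXD4L1 and FOXD4L3 to FOXD4L6. Those copies share much sequence: 97.5% of the 50-base words of FOXD4L3 occur in another gene, 94.3% of FOXD4L6, 90.4% of FOXD4L4, 60.5% of FOXD4L5 and 58.3% of FOXD4L1, with 63.1% for FOXD4. FOXD4 itself was at 0.111 FPKM in the control, about 1.78 fragments, a value that may include reads of its copies.

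**Figure D4:**
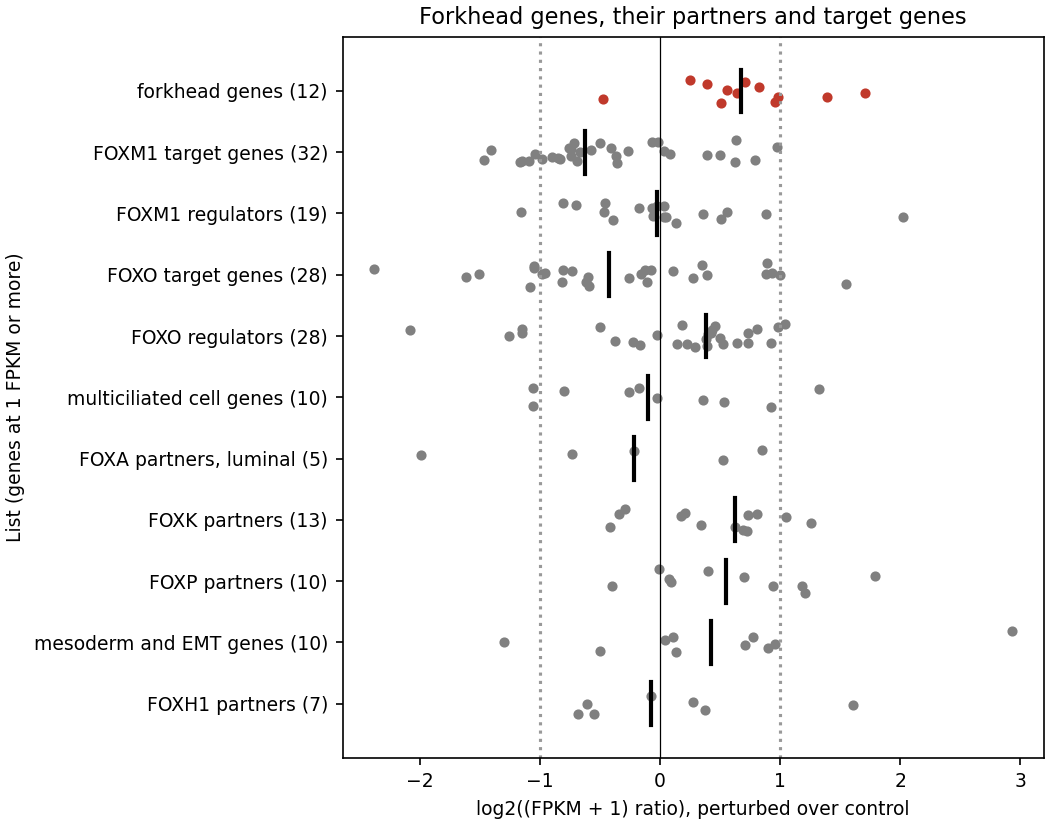
log2 ratio of (FPKM + 1), perturbed over control, for each gene at 1 FPKM or more in the forkhead family (red) and in 10 lists of partners, regulators and target genes (grey), with list medians as black bars and 2-fold as dotted lines. The forkhead median is 0.68, FOXK partners are at 0.62 and FOXP partners at 0.55, while FOXM1 target genes are at -0.62 and FOXO target genes at -0.42.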

How the data were processed

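RNA was measured in 2 libraries, 1 per group, grouped by genotype label. Per the labels' protocols, cDNA came from the SMART-Seq HT kit and sequencing libraries from Nextera XT, which keep no strand. The authors deposited 1 FPKM value per gene symbol and library, per the file headers; hg19, Cuffdiff 2.2.1, SAMtools 0.1.18, Bowtie2 2.2.8 and TopHat2 2.1.1 are listed in the submitters' processing notes. The sources used here do not give the annotation, the treatment of multi-mapping reads or the scaling.

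The members and the gene lists were chosen with earlier results of these data known. Ratios were taken as log2((FPKM + 1) / (FPKM + 1)), and folds are of FPKM alone. Named were all members at 1 FPKM or more, the strongest of the others and those with near-copies, and in each list up to 4 called genes per direction; other list members with values were chosen after their values were seen. No p-value was computed, with 1 library per group.

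Among 1129 genes under 0.3 FPKM in both libraries and above 0, 78.7% had a ratio matching 1 to 8 whole fragments within 0.002 on the log2 scale, against 3.47% on average at other offsets. Lengths came from GENCODE 29 transcripts matched to RefSeq (49 of 50 members), shortened by 200 bases, at which the most values fell at 1 fragment. Of 21 member values of 1 to 10 estimated fragments, 13 were within 0.05 of a whole number. Intervals (Clopper-Pearson, 95%) cover counting error only; PCR copies are not independent molecules. The steps were tested on simulated data. Shared sequence was the share of 50-base words found in transcripts of another gene. Alternatives were other pseudocounts, scalings, filters and rules of size, and removal of a cubic trend on length, GC and level. Python 3.11.15, numpy 2.4.6, pandas 2.3.3 and scipy 1.17.1 were used.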

Additional observations from a re-analysis of the deposited data

How the results depend on the processing

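The number of forkhead genes called higher, 2 by the main rule, was 5 with a pseudocount of 0.1 FPKM, 7 with a 1.5-fold rule and 4 with each of the other scalings (a common sum, the median ratio, a trimmed mean). It was 1 among genes at 5 FPKM or more in a library, 1 among genes at 1 FPKM or more in both, and 0 with a pseudocount of 5 FPKM or a 4-fold rule. It was 2 without a filter and with trends removed. Leaving out the 5 members that share over 20% of their words with another gene, an alternative chosen after seeing the data, left 7 members with 0 higher and a median of 0.64, since FOXH1 and FOXO3 are among the 5. The number lower was 0 under every alternative run, where the share of all genes ran from 0.713% (4-fold rule) to 21.3% (1.5-fold rule). The median log2 ratio, 0.68, was 0.30 with a pseudocount of 5 FPKM, 0.29 with trends removed and 0.00 over all 50 members, of which 21 are at 0 in both; under the other alternatives it lay between 0.64 and 0.98. A common sum moved the median of all genes from -0.06 to 0.08. FOXO3 (0.55) and FOXH1 (0.94) no longer passed 2-fold with a pseudocount of 5 FPKM, nor did FOXO3 (0.89) with trends removed, where FOXD2 (-0.04) and FOXK1 (-0.08) turned below 0; no other member at 1 FPKM or more changed sign under another pseudocount, another scaling or trend removal. No paired analysis was possible because each group has 1 library, and for the same reason no replicate could be left out.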
